A study of Mus musculus with 30 samples.

Results

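Inhibitory cortical neurons without Nova2 were described here by every event in the authors' deposited table that set sorted Gad2-Cre control cells against sorted Gad2-Cre Nova2-cKO cells. An event is a place in a gene where transcripts are spliced in alternative ways, and cKO is the conditional knockout. The table holds 1970 events in 855 genes, out of 6491 events in the 4 splicing tables of the series, and rests on 6 of the series' 30 samples. Both groups were C57BL/6J mouse cortex at embryonic day 18.5, with 3 samples each, sorted by FACS and sequenced after removal of ribosomal RNA. The labels give the genotypes as Wild-type_Gad2-Cre for the control and Nova2-cKO_Gad2-Cre for the knockout, so the control also carried the Gad2-Cre allele. Cre from the Gad2 locus is active in cells that make GABA, and the knockout is confined to cells in which that Cre acted. The Emx1-Cre table sets Wild-type_Emx1-Cre against Nova2-cKO_Emx1-Cre cortex cells of the same age and strain, again with 3 samples each. It is used here as the reference for which genes were also listed in the excitatory class. Its levels are also given for some events listed in both classes.

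NOVA2 is a neuronal RNA-binding protein that recognises YCAY, a pyrimidine followed by C, A and a pyrimidine. Where it binds inside an exon or just upstream of it the exon is usually skipped, and where it binds downstream the exon is usually included. Cortical interneurons arise in the ventral forebrain, migrate into the cortex and form synapses that use GABA, with gephyrin as the scaffold of the receptors. Gad2-Cre cells and Emx1-Cre cells of the cortex therefore differ in origin, migration and transmitter.

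An inclusion level is the share of an event's transcripts that carry the alternative region, as a fraction from 0 to 1, and each difference below is the level in cKO minus the level in control. The authors' deposited table gives 1 pooled level per group and no value per library, so the spread between replicates cannot be shown and no test across samples was possible. It lists only events with the authors' false discovery rate (FDR) at 0.05 or below, a difference of at least 0.1 and a coverage of at least 20. A gene that is missing from a table is therefore not shown to be unchanged. Coverage is the authors' measure of the reads behind an event, with a median of 64.0 and a highest value of 3094. Nova2 had 0 listed events, so its own loss is not visible here. A pooled level cannot tell apart a change within cells from a change in the mix of cells that were sorted. The tables hold no expression levels, so the cell type could not be checked against its markers. Of 40 marker genes of excitatory neurons, progenitors, glia and vessels, 1 had a listed event (Cux1), which is no measure of their amount.

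The exons that carry the main results are shown here in full, read from GENCODE release M21 transcripts on mouse build mm10, 5′ to 3′ in the sense of the gene. Capitals mark YCAY, spelled TCAT as well as TCAC, and also CCAT along with CCAC. The set of 10 was formed from coding cassette exons of up to 120 nt, first those of genes with no event in the Emx1-Cre table and then those with the largest differences in the gene lists used below. An exon of Cadps2 lies at chr6:23320933-23320947 on the minus strand, and an exon of Pard3 at chr8:127359727-127359810 on the plus strand.
Cadps2: tttaggaatcagtgg
Pard3: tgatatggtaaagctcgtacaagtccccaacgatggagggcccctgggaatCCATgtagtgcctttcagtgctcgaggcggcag
Exons that were lost in cKO and belong to genes absent from the Emx1-Cre table are those of Exoc7 (chr11:116296730-116296798, minus strand), Mink1 (chr11:70606631-70606717, plus strand), Ikzf1 (chr11:11740950-11741009, plus strand) and Grik1 (chr16:87896809-87896895, minus strand).
Exoc7: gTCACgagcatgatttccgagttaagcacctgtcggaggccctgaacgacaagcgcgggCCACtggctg
Mink1: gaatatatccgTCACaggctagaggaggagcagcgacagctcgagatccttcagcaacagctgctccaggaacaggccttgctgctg
Ikzf1: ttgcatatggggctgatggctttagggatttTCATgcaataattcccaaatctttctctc
Grik1: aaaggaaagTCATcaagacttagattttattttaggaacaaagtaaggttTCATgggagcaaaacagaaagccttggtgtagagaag
The Dmd exon (chrX:85144911-85144949, plus strand) rose and belongs to a gene absent from the Emx1-Cre table. For contrast, the exons of Erbb4 (chr1:68290243-68290317, minus strand), Cask (chrX:13550947-13550982, minus strand) and Gphn (chr12:78493950-78494057, plus strand) were listed in both classes.
Dmd: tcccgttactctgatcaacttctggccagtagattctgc
Erbb4: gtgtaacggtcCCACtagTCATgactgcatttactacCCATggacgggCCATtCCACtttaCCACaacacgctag
Cask: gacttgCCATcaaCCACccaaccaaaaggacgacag
Gphn: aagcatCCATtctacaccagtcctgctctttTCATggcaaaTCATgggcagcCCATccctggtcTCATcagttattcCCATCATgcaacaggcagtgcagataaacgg
The Gphn exon holds 7 YCAY and the Erbb4 exon 6, and both rose in cKO. By contrast the Cadps2 exon of 15 nt and the Dmd exon of 39 nt, which also rose, hold 0. Those of Gphn and Erbb4 are longer, at 108 and 75 nt, and the part of length was not tested. The Pard3 exon rose too and holds 1. The printed exons were picked and do not stand for their gene classes. Of 23 rising coding cassettes searched below in genes absent from the Emx1-Cre table, 17 held YCAY (73.9%). In genes also listed there the count was 38 of 57 (66.7%). Both shares were near the 70.3% of all internal coding exons of GENCODE in the same range of length. Among falling exons the shares were 46.2% and 54.8% in the same order of gene classes.

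Exon skipping prevailed in inhibitory neurons without Nova2. Of 6217 cassette exon events that the authors had tested, 726 were listed (11.7%), and these fall on 702 exons. Of the listed events 463 were lower in cKO (7.45% of those tested) and 263 were higher (4.23%). Tandem cassettes, in which neighbouring exons are included or skipped together, were lower in 294 events and higher in 132, or 7.37% and 3.31% of 3989 tested. Retained introns went the other way, with 177 higher and 65 lower, or 10.4% and 3.82% of 1702 tested. Mutually exclusive exons (489 listed, 3.7% of those tested) and alternative 5′ and 3′ splice sites (28 and 59 listed, 3.76% and 2.93%) have no order of inclusion, so a direction there only follows whichever isoform the authors named at the start of the record. Across all types 7.06% of 27897 tested events were listed. The numbers tested were recovered from the authors' p-values and FDR, as described with the processing.

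Of the 855 genes, 436 (51.0%) had no event in the Emx1-Cre table, and they held 733 events. Another 343 genes shared an event with that table, and 76 were in both tables with no event in common. The 436 genes had smaller differences by the median. Their largest event had a median absolute difference of 0.178 (quartiles 0.137 and 0.252), against 0.255 in genes with an event in common, and their median FDR was 0.0111 against 0.000187. Their median coverage was 56.9 against 90.4, so fewer reads stood behind their events, and the part of coverage in which genes were listed was not tested. Of the 436 genes, 302 (69.3%) had only 1 listed event, against 40.5% of genes with an event in common. By their largest event, 11 of the 76 genes with no event in common overlapped a region listed in the Emx1-Cre table. Alternative splice sites were left out of this comparison of positions. The 436 genes had 0 such overlaps, which follows largely from their choice as genes without an Emx1-Cre event.

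The share of genes absent from the Emx1-Cre table fell as the difference grew. It was 40.7% of genes whose largest difference was at least 0.2, 32.2% at 0.3 and 22.1% at 0.5, where 15 of 68 genes remained. Of those 15 genes, 2 were higher in cKO and 13 were lower, beside 51.5% lower among all listed genes of any size. Directions were not counted for the other genes of that size, so the split is not shown to be particular to the 15. First-named isoforms are included in it. By coverage the share was 59.8% of genes between 20 and 50, 51.7% between 50 and 100, 36.4% between 100 and 200 and 46.2% at 200 or more. It was thus highest for the least covered genes, but did not keep falling with coverage.

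**Figure D1:**
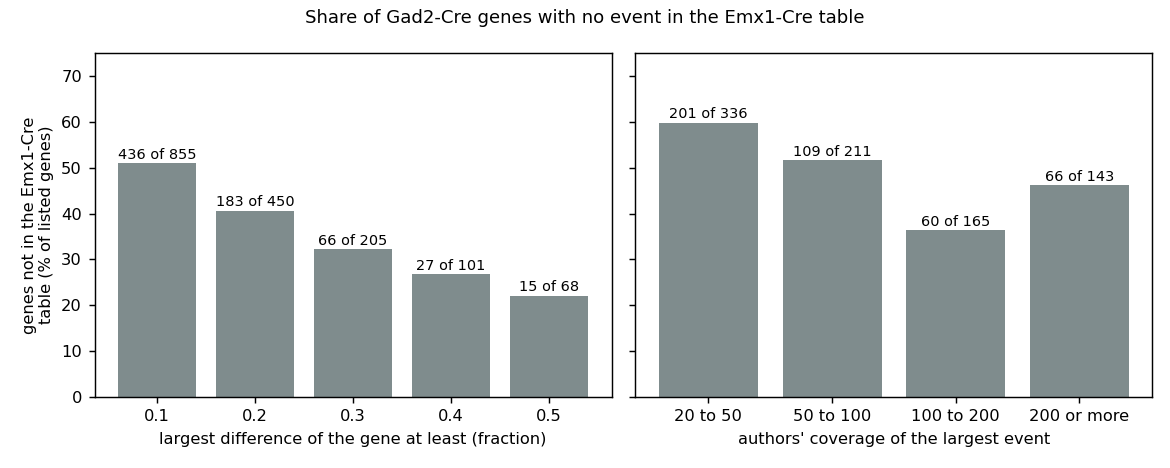
Share of listed Gad2-Cre genes with no event in the Emx1-Cre table, in percent, by the least size of the gene's largest difference (left, nested classes) and by the authors' coverage of that event (right, separate classes). Each bar is labelled with its gene count, from 436 of 855 genes at a difference of 0.1 to 15 of 68 at 0.5.

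In genes absent from the Emx1-Cre table each event type had the same majority direction as in the table as a whole, but not always the same share. Of 250 cassette exons, 165 were lower in cKO and 85 higher (66.0% lower, exact 95% interval 59.8 to 71.9). In genes also listed for Emx1-Cre cells, 293 of 470 cassette exon events were lower (62.3%, 57.8 to 66.7), so these intervals overlap. Tandem cassettes were lower in 99 of 159 events (62.3%, 54.2 to 69.8) against 194 of 264 (73.5%, 67.7 to 78.7). Retained introns were higher in 69 of 109 (63.3%, 53.5 to 72.3) against 108 of 133 (81.2%, 73.5 to 87.5), and these intervals do not overlap. The majority of higher introns in genes absent from the Emx1-Cre table did not hold for large differences: at 0.2 or more, against all Emx1-Cre events, 45.5% of 33 introns were higher. Such intervals hold counting error alone, overlapping events of 1 gene enter them as if independent, and differences between the gene classes were not tested.

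**Figure D2:**
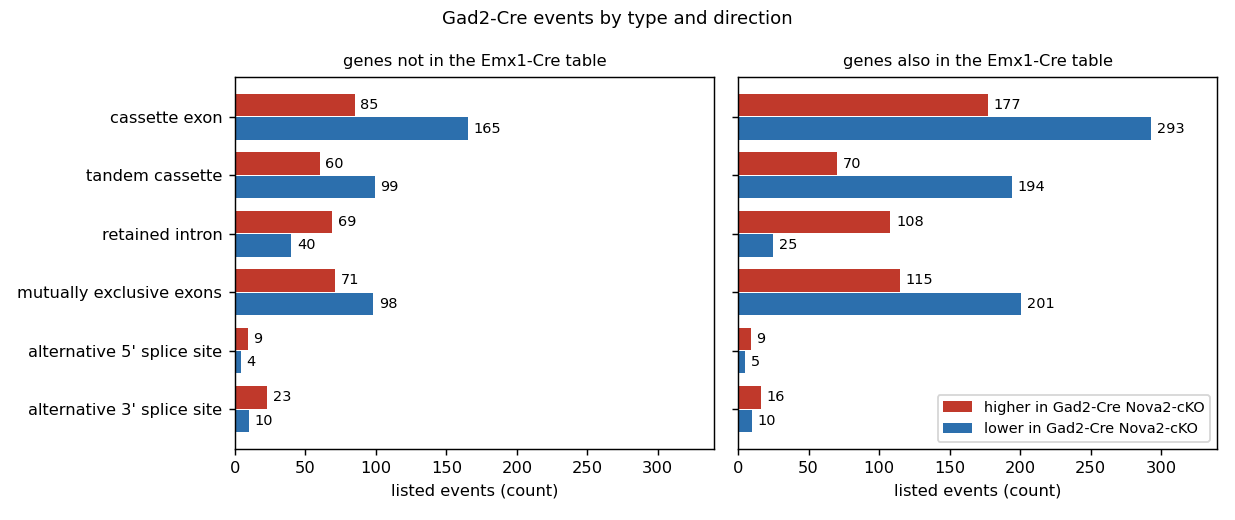
Listed Gad2-Cre events by type (rows) and direction, as counts on the horizontal axis, for genes not in the Emx1-Cre table (left) and genes also in it (right). Red bars are events higher in cKO and blue bars events lower. Cassette exons were lower in 165 of 250 and 293 of 470 events, and retained introns were higher in 69 of 109 and 108 of 133.

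Gains in genes absent from the Emx1-Cre table included exons of Cadps2 and Pard3. Cadps2 (ENSMUSG00000017978), which primes dense-core vesicles for release, had its microexon of 15 nt at a level of 0.176 in control and 0.647 in cKO by the authors' values (FDR 0.00834, coverage 30). Mutually exclusive events on the same 15 nt rose with it, from 0.0645 to 0.321 and from 0.05 to 0.274 in the authors' deposited table. Pard3 (ENSMUSG00000025812), a scaffold of cell polarity, had a coding exon of 84 nt at 0.273 in control and 0.706 in cKO by the authors' values (FDR 0.00153, coverage 21). By these cassette events, both exons were used in the minority of transcripts in control cells and in the majority in cKO, while in the mutually exclusive events of Cadps2 the 15 nt form stayed the minor one.

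Other large gains lay in less well known genes or in records that join several genes. The largest, from 0.333 to 0.903 by the authors' values (FDR 2.56e-06, coverage 21), was a region of 109 nt at chr9:41589974-41590082 that is not a GENCODE exon, in a record that names 2610203C20Rik, Gm28119 and Mir125b-1. Its reads cannot be assigned to any of these 3 genes. Tandem exons of Prr14l (ENSMUSG00000054280, 750 nt within chr5:32844044-32845959) rose from 0.236 to 0.763 by the authors' values, with an FDR of 0.0248 at a coverage of 20. In Strada, a pseudokinase partner of LKB1 whose record also names Gm25556, tandem exons (87 nt within chr11:106180955-106184619) rose from 0.24 to 0.734 by the authors' values (FDR 0.000413, coverage 23.9). Ipo4 (ENSMUSG00000002319), a nuclear import receptor, had tandem exons (236 nt within chr14:55634280-55634823) at 0.442 and 0.848 in the authors' deposited table (FDR 0.00773). Coverage was at most 23.9 behind each of these gains, near the authors' minimum of 20.

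Further down the list, retained introns rose in Fam98a (85 nt, 0.149 to 0.528) and in the endosomal adaptor Appl2 (76 nt, 0.306 to 0.641) by the authors' values. The protocadherin Pcdh9, an adhesion molecule, had a coding exon of 102 nt at 0.303 in control and 0.627 in cKO, and an alternative 3′ splice site in the same region went from 0.321 to 0.650, again the authors' values. In Meis1, a homeobox factor whose record also names 2610001A08Rik, the first-named exclusive isoform went from 0.269 to 0.593 by the authors' values. For Sept2, a septin, the first-named 3′ splice site went from 0.538 to 0.860, and the remaining genes of the 15 (Helz, Ubr3, Sobp and Fam20b) had control levels from 0.136 to 0.401 and cKO levels from 0.524 to 0.774 by the authors' values.

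Losses in genes absent from the Emx1-Cre table included coding exons of Exoc7. Exoc7 (ENSMUSG00000020792), a subunit of the exocyst that tethers vesicles to the membrane, had its coding exon of 69 nt at 0.842 in control and 0.189 in cKO by the authors' values (FDR 0.000363, coverage 26.7). A neighbouring coding exon of 93 nt was nearly constant in control, at 0.980, and fell to 0.828 in the authors' deposited table, while the tandem event that holds the 69 nt exon and its longer neighbour fell from 0.874 to 0.255. Exoc7 thus used the 69 nt exon in the minority of transcripts in cKO, and the 93 nt exon still in most.

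Kcnc2 (ENSMUSG00000035681), which encodes the Kv3.2 potassium channel of fast-spiking interneurons, lost a coding exon of 104 nt at chr10:112456929-112457032. As a cassette it went from 0.390 to 0.0189 by the authors' values (FDR 2.83e-12, coverage 101), and as the first-named of mutually exclusive isoforms from 0.639 to 0.0435 (FDR 4.17e-07, coverage 69.0). Grik1 (ENSMUSG00000022935), the kainate receptor subunit GluK1, lost an exon of 87 nt that was at 0.467 in control and 0.000284 in cKO by the authors' values (FDR 1.01e-19, coverage 35.1). In both genes the exon was close to absent without Nova2.

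The kinase Mink1 (ENSMUSG00000020827), of the germinal centre kinase family, had its exon of 87 nt at 0.833 in control and 0.251 in cKO by the authors' values (FDR 4.17e-06, coverage 22). Ikzf1 (ENSMUSG00000018654), a zinc finger transcription factor best known in lymphocytes, had an exon of 60 nt at 0.824 and 0.249 in the authors' deposited table (FDR 0.000239, coverage 31). The largest listed difference of all, from 1 to 0.0909 by the authors' values (FDR 9.52e-09), was a region of 110 nt in the meiotic helicase gene Hfm1 (ENSMUSG00000043410, chr5:106920963-106921072), at the minimum coverage of 20 and not a GENCODE exon. In all 3 genes the control form was the one with the region, and in cKO most transcripts lacked it.

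Erbb2ip, which encodes the basolateral scaffold Erbin, lost a coding exon of 144 nt, from 0.637 to 0.103 by the authors' values (FDR 1.12e-06, coverage 55.6). A separate region of 148 nt in the same gene, not a GENCODE exon, fell from 0.355 to 0.0861 at a coverage of 105 by the authors' values. Pxk, a sorting protein with a PX domain, had an exon of 33 nt at 0.597 and 0.0353, and tandem exons of the MAP kinase kinase Map2k5 went from 1 to 0.492 at the minimum coverage of 20 by the authors' values. Retained introns fell in Mroh1 (ENSMUSG00000022558, 524 nt at chr15:76434159-76434682, 0.867 to 0.185, FDR 2.64e-06, coverage 28), Vars2 (813 nt, 0.902 to 0.378), the Mediator subunit gene Med25 (412 nt, 0.76 to 0.253) and the lysosomal mannosidase gene Man2b1 (68 nt, 0.719 to 0.224) by the authors' values. These 4 are also the largest losses of any retained intron in the Gad2-Cre table, followed by an intron of 1273 nt in the deacetylase gene Hdac7, from 0.889 to 0.458 by the authors' values. Of the 5 largest intron gains only that of Fam98a lay in a gene absent from the Emx1-Cre table. The others were in Ppox, an enzyme of haem synthesis (294 nt, 0.0698 to 0.556), the polyadenylation factor gene Cpsf4 (1455 nt, 0.266 to 0.699), Dpp7 and the nucleoside kinase gene Nme4 (129 nt, 0.314 to 0.674) by the authors' values.

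**Figure D3:**
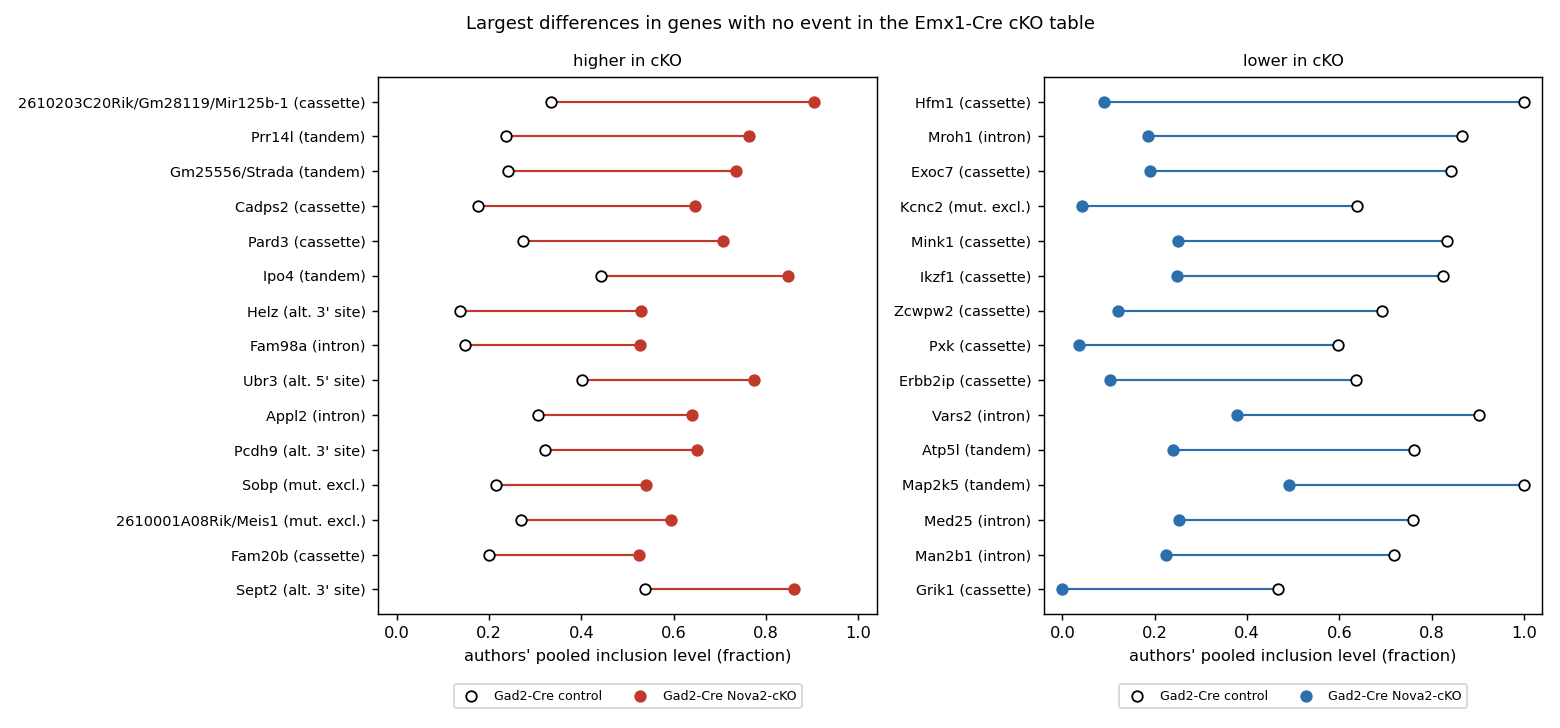
Authors' pooled inclusion level, as a fraction, in Gad2-Cre control (open circles) and Gad2-Cre Nova2-cKO (filled circles) for the 15 largest increases (left) and 15 largest decreases (right) among genes with no event in the Emx1-Cre table, 1 event per gene. For alternative splice sites and mutually exclusive exons the level is that of the first-named isoform. Grik1 and Kcnc2 end near 0 in cKO, and Hfm1 and Map2k5 start at 1 in control.

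Listed genes of the GABA system and of interneuron identity were absent from the Emx1-Cre table no more often than listed genes in general. For every gene list below, higher and lower refer to the largest event of any type. That includes first-named isoforms, which have no order of inclusion. The number of genes tested is not known, so no listed share over all genes can be set beside a list. Of 33 genes of the inhibitory synapse and GABA, 4 were listed, all higher in cKO by their largest event. No Emx1-Cre event was listed for 2 of the 4 (50%, beside 51.0% of all listed genes). In each of the 4 that event was a cassette or tandem cassette, and of the 389 listed genes with such a largest event 247 were lower (63.5%). Gad1, which makes GABA from glutamate, had a region of 86 nt at chr2:70584420-70584505 that is not a GENCODE exon. This region was at 0.260 in control and 0.471 in cKO by the authors' values (FDR 4.75e-17, coverage 356). The form of 80 nt that shares its start went from 0.196 to 0.396 at a coverage of 311 by the authors' values (FDR 1.23e-16). Embryonic Gad1 transcripts are known to carry an extra exon that cuts the reading frame short, and that background was not tested here. The Dmd exon of 39 nt, in the gene of dystrophin, which anchors GABA receptors in some neurons, went from 0.429 to 0.589 by the authors' values (FDR 0.0290, coverage 36.0).

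The other members of that list were also listed in the Emx1-Cre table. Gphn, the gephyrin gene, had its exon of 108 nt at 0.0517 in Gad2-Cre control and 0.693 in cKO, and at 0.180 and 0.881 in the Emx1-Cre groups, by the authors' values. Glra2, a glycine receptor subunit, had a region of 244 nt at 0.000199 and 0.571 in the Gad2-Cre groups, against 0.000257 and 0.854 in the Emx1-Cre groups, by the authors' values. Both regions were close to unused in Gad2-Cre control cells and became the major form in cKO.

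Among 52 genes of interneuron development 7 were listed, 5 higher and 2 lower. Of the 4 whose largest event was a cassette or tandem cassette, 0 were lower, beside 63.5% of all such listed genes. A difference of so few genes from the rest was not tested. Of the 7, 3 had no Emx1-Cre event (42.9%, beside 51.0% of all listed genes). Erbb4, the neuregulin receptor of migrating interneurons, had the largest gain of the list: its coding exon of 75 nt went from 0.170 to 0.918 at a coverage of 730 by the authors' values (FDR 3.65e-244). The same exon went from 0.141 to 0.636 in the Emx1-Cre table at a coverage of 33.0 by the authors' values. The members absent from the Emx1-Cre table were Nrp1, a semaphorin receptor, with a first-named 5′ splice site at 0.726 and 0.896, Adarb2, an RNA-editing relative, with a first-named isoform at 0.866 and 0.712, and Sox6, a transcription factor of interneurons from the medial ganglionic eminence, with a coding exon of 123 nt at 0.163 and 0.293, all by the authors' values. These 3 differences are small beside that of Erbb4. The transcription factor gene Dlx1 was in both tables, with a region of 134 nt at 0.214 in control and 0.403 in cKO by the authors' values.

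Genes of transmitter release were listed in both directions. The table listed 16 of 71 presynaptic genes (5 higher, 11 lower), and of the 12 whose largest event was a cassette or tandem cassette 8 were lower (66.7%, beside 63.5% of all such listed genes). Of the 16, 7 had no Emx1-Cre event (43.8%, beside 51.0% of all listed genes). They were Exoc7 and Cadps2, already described, with Epn2, Itsn1, Snap25, Sh3gl1 and Erc1. The scaffold Cask had its exon of 36 nt at 0.880 in control and 0.190 in cKO by the authors' values (FDR 2.47e-35, coverage 179). Epn2 and Itsn1, both endocytic adaptors, lost short coding exons in part: Epn2 an exon of 36 nt from 0.537 to 0.350, and Itsn1 an exon of 15 nt from 0.366 to 0.205, by the authors' values. Snap25, a SNARE of the plasma membrane with known exclusive exons, had a coding exon of 118 nt at 0.719 and 0.867 by the authors' values (FDR 0.0162, coverage 48.0).

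On the receiving side, 19 of 57 genes of postsynaptic scaffolds and glutamate receptors were listed, 10 higher and 9 lower. Of the 12 whose largest event was a cassette or tandem cassette, 5 were lower (41.7%, beside 63.5% of all such listed genes). Of the 19, 3 had no Emx1-Cre event (15.8%, beside 51.0% of all listed genes). These 3 were Grik1, the AMPA receptor subunit gene Gria1, whose first-named exclusive isoform went from 0.649 to 0.507 at a coverage of 1594, and Pick1, a binding partner of AMPA receptors, whose intron of 625 nt went from 0.0596 to 0.177, by the authors' values. The largest members were in both tables. Adam22, a receptor of LGI proteins, went from 0.922 to 0.135 in its first-named isoform, Sorbs2, an adaptor with SH3 domains, from 0.0272 to 0.811 in tandem exons, and Dlg3, a scaffold of glutamate synapses, from 0.0947 to 0.622, by the authors' values.

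Among lists with more than 1 listed gene, synaptic adhesion had the smallest share absent from the Emx1-Cre table (6.25%, beside 51.0% of all listed genes). Of its 54 genes 16 were listed, 6 higher and 10 lower, and 1 (Pcdh9) had no Emx1-Cre event. Of the 12 whose largest event was a cassette or tandem cassette, 8 were lower (66.7%, beside 63.5% of all such listed genes). Clstn1, a calsyntenin, lost tandem exons, from 0.981 to 0.384, and Nrcam, a neuronal adhesion molecule, from 1 to 0.442, by the authors' values. Ptprs, a receptor phosphatase, gained a coding exon of 59 nt, from 0.221 to 0.808 by the authors' values. Of 62 ion channel genes 9 were listed, 5 higher and 4 lower. Of the 6 whose largest event was a cassette or tandem cassette, 2 were lower (33.3%, beside 63.5% of all such listed genes). Of the 9, 4 had no Emx1-Cre event (44.4%, beside 51.0% of all listed genes). The 4 without an Emx1-Cre event were Kcnc2 with its large loss, and the chloride transporter Clcn3, the potassium channel Kcnn2 and the sodium channel Scn3a, whose differences were 0.12 each by the authors' values.

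Most of the listed cytoskeletal genes also had an event in the Emx1-Cre table. Of 78 microtubule and motor genes 26 were listed, 9 higher and 17 lower. Of the 15 whose largest event was a cassette or tandem cassette, 11 were lower (73.3%, beside 63.5% of all such listed genes). Of the 26, 9 had no Emx1-Cre event (34.6%, beside 51.0% of all listed genes). Among those 9, Kifc3, a minus-end motor, lost an exon of 27 nt from 0.488 to 0.156 by the authors' values. Map7d1, a microtubule-binding protein also among the 9, had an intron of 1537 nt fall from 0.312 to 0.0677. The centrosomal gene Cep350, another of the 9, had a region of 47 nt at 0.896 and 0.700 that is not a GENCODE exon, again by the authors' values. Of 71 actin, spectrin and adhesion genes 18 were listed, 9 in each direction. Of the 12 whose largest event was a cassette or tandem cassette, 8 were lower (66.7%, beside 63.5% of all such listed genes). Of the 18, 4 had no Emx1-Cre event (22.2%, beside 51.0% of all listed genes). They were led by Dtna, a dystrobrevin, whose exon of 222 nt outside the coding sequence went from 0.389 to 0.107 by the authors' values. Myo9a, a myosin with a RhoGAP domain, had the largest difference of these lists, with tandem exons at 1 in control and 0.171 in cKO by the authors' values.

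Regulators of small GTPases were listed in both directions. Of 104 such genes 26 were listed, 6 higher and 20 lower (51.5% of all listed genes were lower), and 13 had no Emx1-Cre event (50%, against 51.0% of all listed genes). Of the 13 whose largest event was a cassette or tandem cassette 12 were lower (92.3%, beside 63.5% of all such listed genes), and whether the list differs from the rest was not tested. Among the genes absent from the Emx1-Cre table, Arhgef2, a microtubule-bound RhoA activator, had a region of 102 nt at 0.689 and 0.437, Arhgef7, a Rac and Cdc42 activator, a region of 168 nt at 0.697 and 0.408, and Nf1, the neurofibromin Ras inhibitor, a coding exon of 30 nt at 0.286 and 0.0599, by the authors' values. The Tsc2 gene, an inhibitor of Rheb, had an intron of 92 nt at 0.279 and 0.111 by the authors' values. The highest gain of the list was shared: Rasal2, a Ras inhibitor, went from 0.0274 to 0.742 in its first-named 3′ splice site by the authors' values.

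Axon guidance and migration genes were listed in 14 of 74, 6 higher and 8 lower. Of the 6 whose largest event was a cassette or tandem cassette, 4 were lower (66.7%, beside 63.5% of all such listed genes). Of the 14, 6 had no Emx1-Cre event (42.9%, beside 51.0% of all listed genes). Dock3, a Rac activator that is also among the GTPase regulators, went from 0.865 to 0.551 in its first-named 5′ splice site by the authors' values. In Epha6, an ephrin receptor, a region of 120 nt that is not a GENCODE exon fell from 0.312 to 0.0702 by the authors' values. Kinases and phosphatases were listed in 30 of 123, 14 higher and 16 lower. Of the 17 whose largest event was a cassette or tandem cassette, 11 were lower (64.7%, beside 63.5% of all such listed genes). Of the 30, 14 had no Emx1-Cre event (46.7%, beside 51.0% of all listed genes). Beside Mink1 and Map2k5, the best covered of the large ones was Ppp6r3, a regulatory subunit of protein phosphatase 6, whose coding exon of 18 nt went from 0.692 to 0.353 at a coverage of 212 by the authors' values (FDR 9.95e-09).

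Genes that themselves control RNA and chromatin were listed as well. Of 118 RNA-binding and splicing factor genes 32 were listed, 19 higher and 13 lower. Only 9 of them had a cassette or tandem cassette as largest event, and 4 of these were lower (44.4%, beside 63.5% of all such listed genes). Of the 32, 11 had no Emx1-Cre event (34.4%, beside 51.0% of all listed genes). Among the 11, Srrm2, a spliceosome scaffold, had an exon of 95 nt at 0.404 and 0.150, Celf1, a splicing factor, a first-named 3′ splice site at 0.471 and 0.661 (FDR 1.97e-10, coverage 168), and Fxr1, a relative of FMRP, an intron of 333 nt at 0.182 and 0.323, by the authors' values. Introns went both ways here, since Rbm25 and Srsf2 had introns that fell, from 0.774 to 0.610 and from 0.867 to 0.744 by the authors' values. An intron of Celf3, a gene in both tables, fell too. By the largest event of a gene, more introns of the list rose than fell. The same held for the whole Gad2-Cre table, where 73.1% of listed introns rose, and a difference of the list from it was not tested. Beside that of Fxr1, the rising introns of the list were in Rbm39, Srsf1, Hnrnph1, Srsf6, Hnrnpa2b1, Luc7l and Hnrnpdl, all genes in both tables. Of 119 chromatin and transcription genes 32 were listed, 10 higher and 22 lower. Of the 19 whose largest event was a cassette or tandem cassette, 14 were lower (73.7%, beside 63.5% of all such listed genes). Of the 32, 13 had no Emx1-Cre event (40.6%, beside 51.0% of all listed genes). Among these were Med24 of the Mediator complex (exon of 57 nt, 0.924 to 0.592) and the demethylase gene Kdm4b, by the authors' values. The Kdm4b exon of 109 nt, outside the coding sequence, went from 0.465 to 0.177. Of 41 genes known from earlier work as NOVA targets 24 were listed (58.5%), 10 higher and 14 lower. Of the 17 whose largest event was a cassette or tandem cassette, 11 were lower (64.7%, beside 63.5% of all such listed genes). Of the 24, 3 had no Emx1-Cre event (12.5%, beside 51.0% of all listed genes). The gene lists were chosen with results of these data known, so their counts describe the table and support nothing further.

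**Figure D4:**
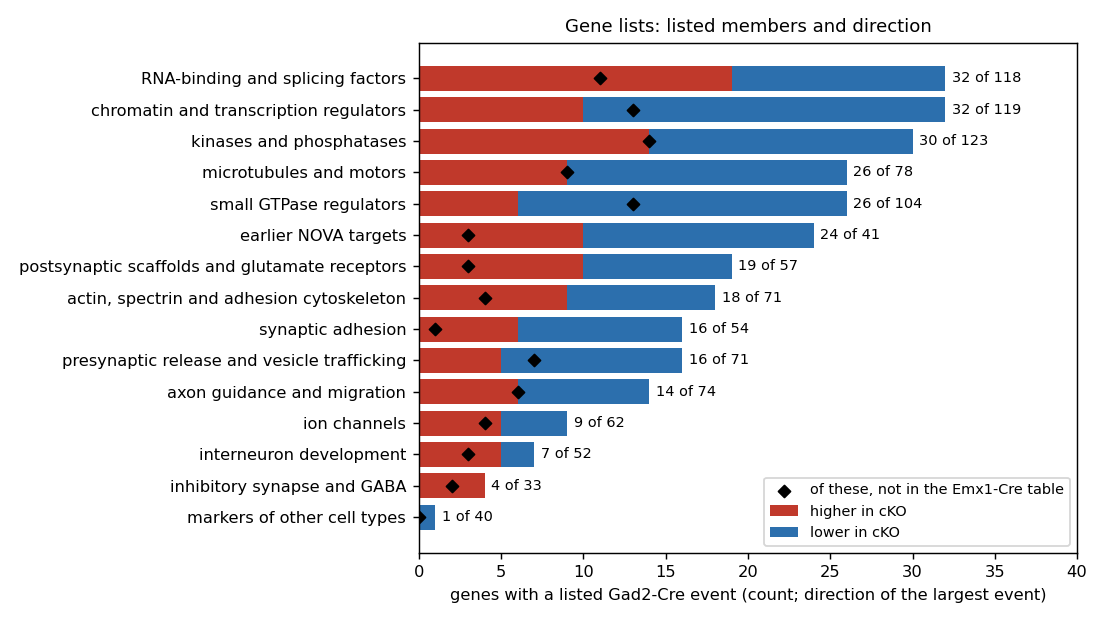
Genes with a listed Gad2-Cre event in each gene list (rows), as counts on the horizontal axis, divided into those whose largest event was higher (red) and lower (blue) in cKO. Diamonds give how many of the listed genes had no event in the Emx1-Cre table, and labels give listed genes out of all genes of the list. The inhibitory synapse list has 4 of 33 listed, all higher, and the list of small GTPase regulators 20 lower of 26. Events of all types are counted, including first-named isoforms, whose direction has no order of inclusion.

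In 76 genes both classes had listed events but none in common. Among them Arpp21, a phosphoprotein of forebrain neurons, lost tandem exons of 200 nt, from 1 to 0.425, and Zbtb20, a zinc finger repressor, lost an exon of 164 nt outside the coding sequence, from 0.846 to 0.321, by the authors' values. The axon guidance gene Sema3f had an intron of 170 nt at 0.667 and 0.281 by the authors' values. Gains in this class were smaller, led by an intron of 529 nt in the peptidase gene Dpp7, from 0.278 to 0.647, and a region of 95 nt in the kinase gene Pak3, from 0.211 to 0.579, by the authors' values. Rbfox2, itself a splicing factor, gained a coding exon of 43 nt, from 0.130 to 0.427 by the authors' values (FDR 0.0228, coverage 35.8).

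An exon whose length is a multiple of 3 can be skipped without a change of reading frame. Such a length was found in 116 of 250 cassette exons (46.4%) in genes absent from the Emx1-Cre table, against 263 of 446 (59.0%) in genes also listed there. Each exon was counted once here, so the 470 cassette exon events of the latter genes give 446 exons. Within exons that GENCODE places wholly in coding sequence the counts were 62 of 100 (62.0%) and 161 of 204 (78.9%). By direction, in genes absent from the Emx1-Cre table, 43 of 63 coding exons that fell were in frame (68.3%) and 19 of 37 that rose (51.4%). In genes also listed there the shares were close, at 99 of 124 (79.8%) and 64 of 83 (77.1%). Length itself was the same in the middle, at a median of 99 nt in both classes, with 39 of 250 (15.6%) and 82 of 446 (18.4%) at 51 nt or shorter. These differences between gene classes and between directions were not tested.

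Most of the exons moved from intermediate control levels. In genes absent from the Emx1-Cre table, the 165 cassettes that fell had median levels of 0.637 in control and 0.382 in cKO by the authors' values, and 43 of them were at 0.9 or more in control. The 85 that rose had medians of 0.382 and 0.657 by the authors' values, and 7 of them were at 0.1 or less in control. In genes also listed in the Emx1-Cre table, 40 of 177 rising cassettes were at 0.1 or less in control. Retained introns of the first gene class that rose had medians of 0.119 in control and 0.264 in cKO and a median length of 264 nt, and those that fell had medians of 0.458 and 0.239 and 198.5 nt, by the authors' values.

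YCAY inside the exon was counted for coding cassettes of 12 to 120 nt. Of 23 exons that rose in genes absent from the Emx1-Cre table, 17 held at least 1 YCAY (73.9%, 2.17 per 100 nt), and of 52 that fell 24 did so (46.2%, 1.15 per 100 nt). In genes also listed in the Emx1-Cre table the counts were 38 of 57 (66.7%, 2.61 per 100 nt) and 51 of 93 (54.8%, 1.43 per 100 nt). Among all 79974 internal coding exons of GENCODE in the same range, 70.3% held YCAY, at 1.63 per 100 nt. The reverse complements, spelled ATGA as well as GTGA, and also ATGG along with GTGG, were searched the same way. They were found in 73.9% of rising and 78.8% of falling exons of the first gene class. In genes also listed in the Emx1-Cre table the shares were 61.4% of rising and 62.4% of falling exons, beside 81.4% of all GENCODE exons. Exons that fell were shorter, with a median of 68.5 nt against 80 nt for those that rose and 87 nt for all, and the part of length was not tested. Introns were not searched, so a YCAY count here covers the exon alone.

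Some of the events in genes absent from the Emx1-Cre table also appear in the authors' deposited table that compares the 2 control groups, so the level in Emx1-Cre control cells is known for them. These values share the Gad2-Cre control samples with the knockout comparison and are given side by side only. Exoc7 had its exon of 69 nt at 0.183 in Emx1-Cre control, 0.842 in Gad2-Cre control and 0.189 in Gad2-Cre cKO by the authors' values. The Erbb2ip exon was at 0.397, 0.637 and 0.103 in the same order, and the Nf1 exon at 0.0760, 0.286 and 0.0599, by the authors' values. For the Celf1 splice site the levels were 0.797, 0.471 and 0.661, and for the Sept2 splice site 0.929, 0.538 and 0.860, by the authors' values. Retained introns of Mroh1 were at 0.296, 0.867 and 0.185, and those of Med25 at 0.258, 0.76 and 0.253, by the authors' values. The Emx1-Cre knockout level of these events is not given by the tables used here.

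**Figure D5:**
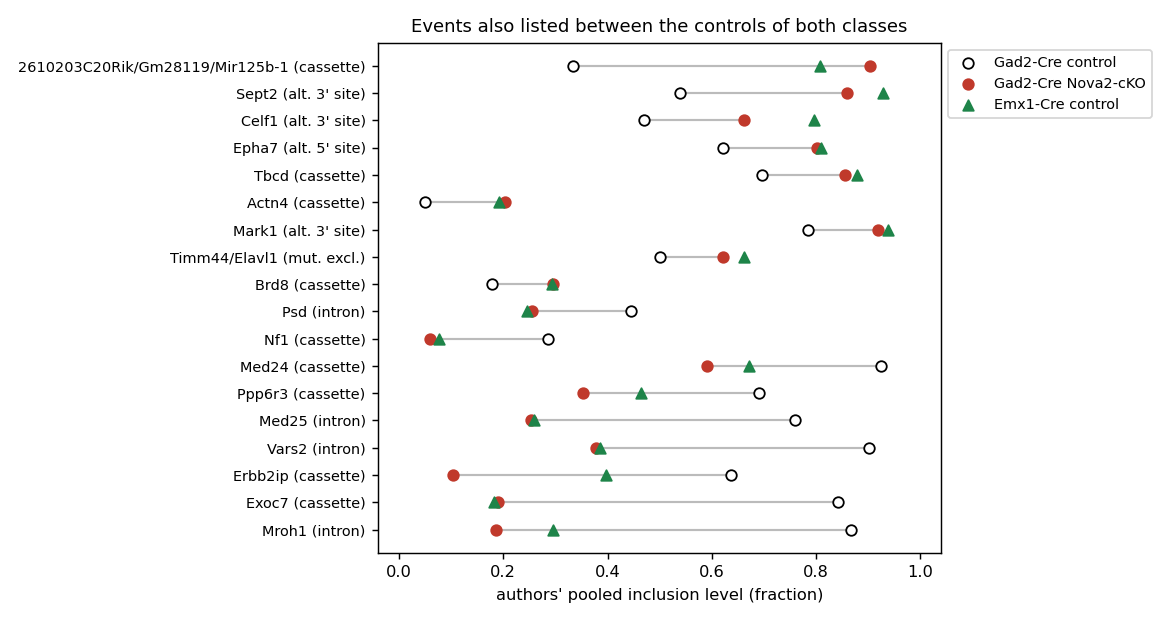
Authors' pooled inclusion level, as a fraction, in Gad2-Cre control (open circles), Gad2-Cre Nova2-cKO (red circles) and Emx1-Cre control (green triangles) for 18 events of named genes or list members with no event in the Emx1-Cre cKO table that were also listed between the controls. The Gad2-Cre control samples enter both comparisons. For Exoc7 the levels are 0.842, 0.189 and 0.183.

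Of 119 events that were the largest of a named gene or list member and were listed in both classes, 2 went in opposite directions. Adgrl3, a latrophilin receptor of teneurins, had an exon of 18 nt at 0.798 in Gad2-Cre control and 0.543 in Gad2-Cre cKO, but at 0.439 in Emx1-Cre control and 0.650 in Emx1-Cre cKO, by the authors' values. Add1, an adducin that caps actin filaments, had tandem exons at 0.979 and 0.760 in the Gad2-Cre groups and at 0.610 and 0.728 in the Emx1-Cre groups by the authors' values. Both were picked after their values were seen, and the difference between the classes was not tested.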

How the data were processed

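RNA was measured in libraries of sorted Gad2-Cre and Emx1-Cre cortex cells, 3 samples per group. Nothing in the labels ties these to separate animals, so the authors' FDR may measure technical spread alone. Per the labels, the authors used Quantas and build mm10 for the splicing tables. Kallisto and edgeR appear in the submitters' processing notes without a stated role. The aligner and all versions are not given in the sources used here. Per the file headers, the deposited levels are a fraction per group, with a p-value and FDR per event, and the deposited coverage is a signal for the comparison. The sign was checked: the deposited difference equals group 1 minus group 2 within 3e-08, and it was turned to cKO minus control here.

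The authors' FDR equals p times the number tested divided by the rank within an event type, which gave the number of events tested: for p-values above 1e-04, 100% of ranks came out within 0.05 of a whole number in every type. This step was tested on simulated data. Records that share a gene ID were counted as 1 gene (77 of 855 genes have records with several names), 14 events name no gene, and 6 event names occur more than once. Shares have Clopper-Pearson intervals at 95%.

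The named genes are, with 1 event per gene (the largest difference), the 15 largest of each direction absent from the Emx1-Cre table, with full values for 6, the 8 largest of each direction in both tables with no event in common, 5 retained introns of each direction and up to 4 members per gene list. Other genes in the text, and second events of a named gene, were chosen after their values were seen, as members of the lists absent from the Emx1-Cre table. Members and lists were chosen with earlier results of these data known. Exon sequences and annotation are from GENCODE M21. Python 3.11.15, pandas 2.3.3 and scipy 1.17.1 were used. Depth per library is unknown. Purkinje tissue and the other 12 samples were not analysed here.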

Additional observations from a re-analysis of the deposited data

How the results depend on the processing

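No paired analysis was possible because the tables hold 1 pooled level per group and no column per library, and for the same reason no replicate could be left out. Of 37 values under other settings, 29 stayed within the exact 95% interval of the main value. These include all 16 for the shares of cassettes and tandem cassettes lower in cKO, the former also in genes absent from the Emx1-Cre table. Retained introns higher in cKO were 73.1% of all listed introns, 63.4% with a difference of at least 0.2 and 80.5% with an FDR of at most 0.01. In genes absent from the Emx1-Cre table they were 63.3%, but 45.5% of 33 with a difference of at least 0.2 against all Emx1-Cre events. Genes absent from the Emx1-Cre table were 51.0% of listed genes, 47.0% with coverage of at least 50 in both tables and 40.7% with a difference of at least 0.2 against all Emx1-Cre events. The median largest difference of these genes was 0.178 (0.169 to 0.191), 0.162 with that coverage, 0.266 with a difference of at least 0.2 in both tables and 0.275 against all Emx1-Cre events, the last 2 by construction. The cause of the other moves was not tested. Counting only events whose record names 1 gene was added after seeing the data and moved no value beyond its interval. The search for YCAY in introns was not run. Coverage near 20 behind the largest differences in genes absent from the Emx1-Cre table limits their precision, and no interval can be given for a single event.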
